A study of Mus musculus with 6 samples.

Results

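The genes of the cytosolic ribosomal proteins were examined on 6 two-colour arrays of mouse ventral prostate. Members were the genes whose array name, or whose symbol from the RefSeq accession of the probe, has the form of a ribosomal protein name, leaving out the Rps6k kinases. This gave 80 genes among 28919 distinct names on the array, 49 of the large and 31 of the small subunit. They were read by 132 probes, and each gene was represented by its brightest probe. The rule uses names and brightness and no comparison between groups. It leaves out genes of ribosomal proteins with other names, such as Rpsa and Fau, and Rpl34, which the file lists under another name.

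Each array set young wild type RNA (FVB mice of 2.5 months, green dye, Cy3) against RNA of 1 of 3 groups labelled red (Cy5), all on the FVB background and each with 2 arrays. The fl26 mice carry 15-LOX2, an enzyme that adds oxygen to arachidonic acid. The svb9 mice carry 15-LOX2sv-b, a splice variant of that enzyme. Both transgenic groups were 2.5 months old, and each is a single transgenic line. The promoter of the transgenes is not given in the sources used here. The third group was wild type at 15 months, called old wild type below. RNA was pooled, from 3 mice per the sample labels and from 6 per the design text. The design text describes the duplicates as independent samples. No dye swap was made. A dye effect and a group effect cannot be told apart against young wild type, but a dye effect drops out between 2 red groups. All values are log2 ratios of red over green after loess normalization, so they are relative to other probes of like brightness on the same array. The 3 comparisons with young wild type share that reference, and whether they share pools is not stated. In whole tissue, fewer cells of a type and less RNA per cell cannot be told apart.

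The ribosome translates mRNA into protein and is built from ribosomal RNA and about equal amounts of each ribosomal protein. The small subunit decodes the mRNA, and the large subunit forms the peptide bond. Many of their mRNAs start with a C and a stretch of pyrimidines, the terminal oligopyrimidine or TOP element, through which mTOR signalling controls their translation. Secretory epithelium such as that of the prostate makes much protein, and mRNAs of ribosomal proteins are abundant in it. An array measures the amount of mRNA and not its translation.

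The start regions of some of the members named below are printed here, because a pyrimidine stretch at the start is the known shared feature of the family. RefSeq promoters on GRCm38.p6 were matched for 60 of the 80 members. Each line gives the 15 bases before and the 15 bases from the annotated start, 5′ to 3′. Capitals mark a C followed by at least 5 bases that are C or T.
Rpl27a (chr7:109519180-109519209, plus strand): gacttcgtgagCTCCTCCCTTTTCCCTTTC
Rpl35 (chr2:39005117-39005146, minus strand): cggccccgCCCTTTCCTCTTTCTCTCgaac
Rps6 (chr4:86857353-86857382, minus strand): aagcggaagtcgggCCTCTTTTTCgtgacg
Rpl28 (chr7:4792950-4792979, plus strand): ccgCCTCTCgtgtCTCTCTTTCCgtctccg
Rpl22l1 (chr3:28805493-28805522, plus strand): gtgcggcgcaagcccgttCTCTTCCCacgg
Rps24 (chr14:24490663-24490692, plus strand): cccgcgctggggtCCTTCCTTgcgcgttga
Rpl36a (chrX:134585639-134585668, plus strand): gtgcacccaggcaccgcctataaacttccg
Rps13 (chr7:116334176-116334205, minus strand): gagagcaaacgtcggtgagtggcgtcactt
Rps16 (chr7:28350674-28350703, plus strand): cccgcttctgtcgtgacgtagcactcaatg
The first 6 have such a stretch and the last 3, Rpl36a, Rps13 and Rps16, have none in this window at the annotated start. By the first listed start, 32 of 60 members (53.3%) had the stretch in the window, against 22.4% of the 27025 genes in the table. The letters CTTTCC, which fall within such a stretch, were in the window of 9 members (15%) and of 1.39% of all genes. Over the whole 300 bases, CTTCCGG on either strand was in 24 members (40%) and in 9.12% of all genes, and TATAAA on the sense strand was in 6 (10%) and 8.88%. These are matches of letters and not measured sites. Members with the stretch and unsaturated signal had a median log2 ratio of 0.00090 in fl26 (19 genes), and those without it had 0.035 (18 genes). With saturated members included the values were -0.17 (30 genes) and -0.02 (27 genes). Unsaturated members had -0.02 (20 genes) and -0.01 (17 genes) in svb9, and 0.16 (17 genes) and 0.30 (14 genes) in old wild type. These differences were not tested.

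The members were among the brightest spots of the array. In young wild type, member probes made up 18 of the 50 brightest probes, 36 of the 100 brightest and 63 of the 200 brightest by mean green intensity. Of the 223 probes with a mean green intensity over 10000, 64 (28.7%) were member probes. Green signal was well above background on all 6 arrays for 77 members, and red signal for 72. The other 3 members, Rpl3l, Rpl39l and Rps15a, were well above background in red on 0 arrays and were not tested. Rpl3l and Rpl39l are tissue-restricted paralogs, of muscle and of testis.

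That brightness set what could be measured. On fl26 array 1 and on svb9 array 1, the red signal of 24 members was saturated on each, against 2 and 1 members on fl26 array 2 and svb9 array 2 and 0 on the old arrays. Over both channels and all arrays, 25 members were saturated somewhere and 55 nowhere. Saturated red spots on fl26 array 1 had a median log2 ratio of -0.81, and unsaturated members on the same array had -0.09. On svb9 array 1 the values were -0.72 and -0.08. A saturated spot gives only a bound for its red level, so its low ratio is not a measured fall.

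The old arrays had the opposite limit. Red spots of 58 members on array 1 of the old group and of 36 on old array 2 carried the outlier mark of the image analysis, and those spots were left out. That is 72.5% and 45% of the members, against 1.25% and 3.52% of all probes. On svb9 array 2 the number was 8 members, on each fl26 array it was 1 and on svb9 array 1 it was 0. Values therefore remained for 22 and 44 members on the old arrays and for 72 to 79 on the others. Median red intensity of the members was 43173 on fl26 array 1, 10784 on fl26 array 2, 41591 on svb9 array 1 and 6962 on svb9 array 2. It was 548 on old array 1 and 4870 on old array 2, whereas green lay between 13945 and 16671 on all 6. Members took 1.76% of the summed red intensity on old array 1 and 6.39% on old array 2, while the other 4 arrays had 7.59% to 8.70%, and green shares lay between 9.19% and 9.86%. The old arrays were therefore low in red signal for these genes, array 1 most of all. Red was low over all probes too. On old array 1, 3219 probes were well above background in red and on old array 2 13600, against 14620 to 27833 on the others. Median red intensity of all tested probes was 82 and 102 on the old arrays, against 106 to 257. The shares are of intensities before background correction.

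**Figure D1:**
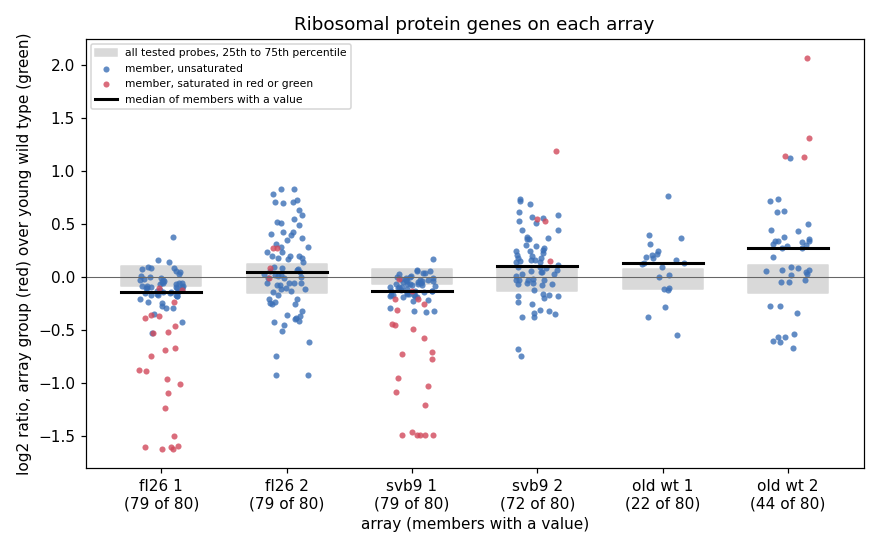
Log2 ratio over young wild type (vertical axis) of each ribosomal protein gene on each of the 6 arrays (horizontal axis, with the number of members that have a value). Points are genes, red where red or green was saturated, black lines are medians and grey bands the middle 50% of all tested probes. The saturated genes of fl26 array 1 and svb9 array 1 reach down to -1.61 and -1.49, and the array medians lie between -0.14 and 0.28.

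Across the whole family, array medians of the members lay outside the middle 50% of all tested probes on each array but fl26 array 2. The median log2 ratio of the members with a value was -0.14 on fl26 array 1 and 0.05 on fl26 array 2. It was -0.13 on svb9 array 1 and 0.11 on svb9 array 2, and 0.14 and 0.28 on the old arrays. The medians of all tested probes lay between -0.02 and 0.01. Their middle 50% ran from -0.08 to 0.11 on fl26 array 1 and from -0.06 to 0.08 on svb9 array 1. On the old arrays it ran from -0.11 to 0.08 and from -0.15 to 0.11. The 2 arrays of fl26, and those of svb9, had medians of opposite sign. The middle 50% of members ran from -0.15 to 0.30 on fl26 array 2 and from -0.06 to 0.32 on svb9 array 2, wider than the -0.14 to 0.12 and -0.13 to 0.09 of all tested probes.

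Young wild type itself could be compared over the 6 green channels. The standard deviation of a member's normalized green level over the 6 arrays had a median of 0.12 on the log2 scale, against 0.09 for all tested probes. That is the spread of 1 channel and not of a ratio. It ran from 5.8e-05 in Rplp0, whose green was saturated, to 0.42 in Rpl21. The median is therefore no limit for a single member's ratio.

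**Figure D2:**
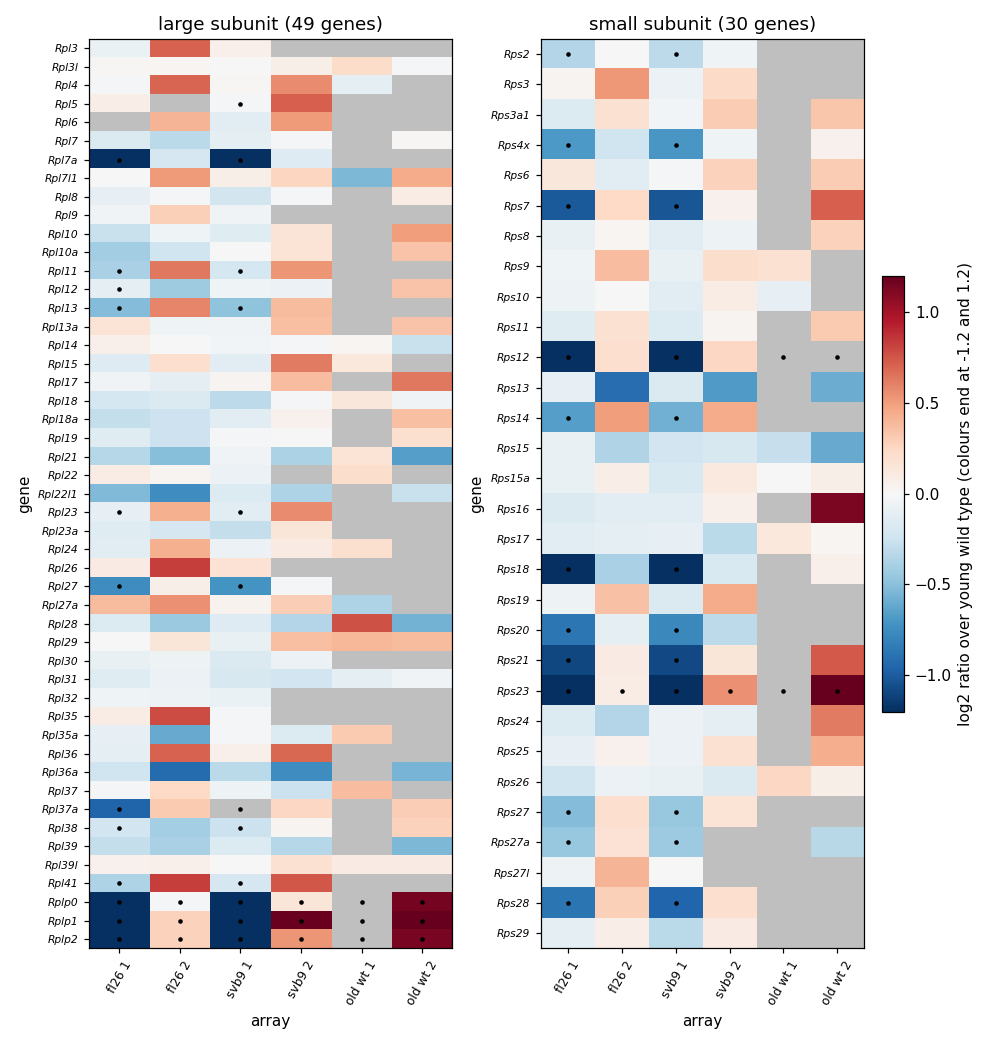
Log2 ratio over young wild type of 79 of the 80 members (one line per gene, large subunit left and small subunit right) on the 6 arrays, from blue (lower) through white to red (higher), with colours ending at -1.2 and 1.2. Grey marks values left out, and black dots mark spots saturated in red or green. The old arrays are mostly grey, with values for 22 and 44 members, and the darkest blue cells of fl26 array 1 and svb9 array 1 carry dots.

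The comparison of fl26 with young wild type asked whether these genes differ in the line with 15-LOX2. No member was called. Limma called 0 of 77 tested members at an adjusted p under 0.05, with adjusted p from 0.216 upward, against 0.0503% of all tested probes. At an unadjusted p under 0.05 there were 11 members (14.3%, 1 higher and 10 lower), against 10.2% of all tested probes. The median over the 77 members was -0.11 (29 above and 48 below 0), against 0.00018 for all tested probes. Over the 51 members with unsaturated signal and values on both arrays it was -0.03. Of these 51, 6 were above 0 on both arrays, 24 below 0 on both and 21 had opposite signs. The large subunit had a median of -0.07 (47 genes) and the small subunit -0.15 (30 genes).

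Among unsaturated members the lowest ratio was that of Rpl22l1, a paralog of Rpl22 that can take its place in the ribosome. Rpl22l1 had -0.53 and -0.74 on the 2 fl26 arrays, both below its svb9 values of -0.16 and -0.37 and its one old wild type value of -0.27. Its mean in fl26 was -0.64 ± 0.10 (limma standard error, n = 2), with an adjusted p of 0.216. Rpl22 itself, a large subunit protein that binds RNA, had 0.09 and 0.03 on the same arrays, with a mean of 0.06 and an adjusted p of 0.858. A second probe of Rpl22 had 0.03 and -0.18. The difference between the paralogs was not tested.

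Next lowest were Rpl36a, a large subunit gene on the X chromosome, and Rps13, an early binding protein of the small subunit. Rpl36a had -0.24 and -0.92 in fl26, with a mean of -0.58 ± 0.19 and an adjusted limma p of 0.418. Its values were close on svb9, at -0.32 and -0.74, and -0.56 on old array 2. The means of its other 2 probes were 0.09 and -0.32 in fl26, and the second of these had 0.26 on old array 2, so size and sign depended on the probe. Rps13 had -0.10 and -0.92 in fl26, -0.17 and -0.68 in svb9 and -0.60 on old array 2, and its other, dimmer probe had 0.15 and 0.11 in fl26. For the brightest probe of both genes every value was below 0, and array 2 was lower than array 1 in both transgenic groups. Rpl21, a large subunit gene with many processed pseudogenes, had -0.35 and -0.51 in fl26. Its other unsaturated probe was much dimmer, with a mean intensity of 117 against 3561. That probe had the opposite sign, with 0.28 and 0.63, a mean of 0.46 and an unadjusted limma p of 0.00879. Rpl35a, a large subunit gene mutated in some cases of Diamond-Blackfan anaemia, had -0.10 and -0.61, and its other probe had -0.04 and 0.47. No direction is therefore given for these 2 genes.

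At the other end, Rpl27a, a large subunit gene, had 0.38 and 0.55 in fl26, with a mean of 0.46 ± 0.10 and an adjusted limma p of 0.296. It had 0.04 and 0.29 in svb9. On old array 1, where its red signal was not well above background, it had -0.37. By brightest probes it was the single member higher at an unadjusted p under 0.05 in fl26. The other highest means rested mostly on 1 array. Rpl26, which can bind the p53 mRNA, had 0.10 on array 1 and 0.83 on array 2, and Rpl35, near the exit of the peptide tunnel, had 0.09 and 0.78. The brightest probe of Rpl6 had a value on array 2 alone, 0.40, and its second probe had 0.0043 and 0.50. Without fl26 array 1 the median over the members was 0.04, and without array 2 it was -0.15.

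Same-numbered arrays of fl26 and svb9 deviated together (r = 0.61). Those of old wild type did so less, with 0.33 for fl26 and 0.17 for svb9. A replicate block changed calls here. With the replicate block, 13 of 77 members passed in fl26, 1 higher and 12 lower, against 3.59% of all tested probes. Of the 13, 9 were saturated on fl26 arrays: Rpl7a, Rplp0, Rplp2, Rps12, Rps18, Rps20, Rps21, Rps23 and Rps4x. The 4 without saturation were Rpl27a (adjusted p = 0.0377 with the block), the one that was higher, and Rpl22l1 (0.0188), Rpl36a (0.0288) and Rps13 (0.0403). Their mean log2 ratios are those given above.

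**Figure D3:**
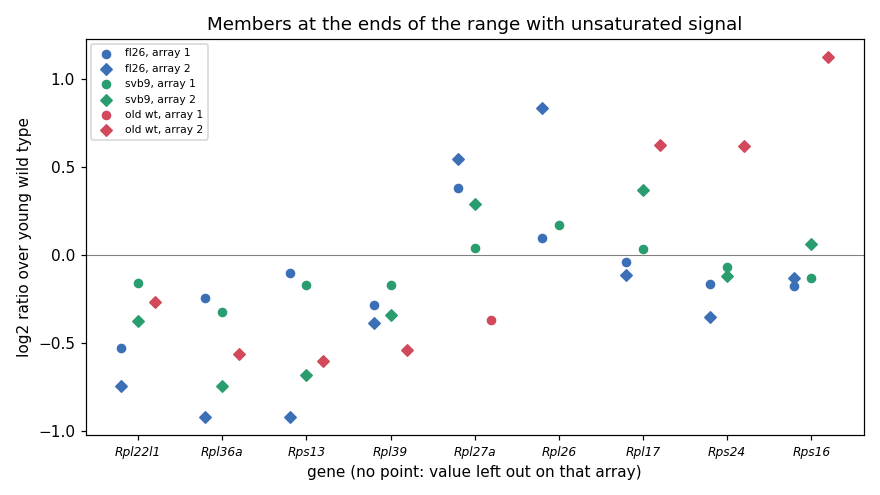
Log2 ratio over young wild type (vertical axis) of the brightest probe of 9 members with unsaturated signal (horizontal axis), coloured by group, with circles for array 1 and diamonds for array 2. Rpl22l1, Rpl36a, Rps13 and Rpl39 lie below 0 on each array with a value, and Rps16 stands at 1.13 on old array 2 with all its other values between -0.18 and 0.06.

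The comparison of svb9 with young wild type asked the same of the line with the splice variant. Limma called 0 of 77 members, with adjusted p from 0.980 upward, and 0% of all tested probes. At an unadjusted p under 0.05 there were 6 members (7.79%, all lower), against 4.45% of all tested probes. The median was -0.07 (27 above and 50 below 0), against -0.0031 for all tested probes. Over the 46 members with unsaturated signal and values on both arrays it was -0.04. The large subunit had -0.04 and the small subunit -0.12. The median without array 1 was 0.10, and without array 2 it was -0.13.

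The lowest unsaturated member was again Rpl36a, with a mean of -0.53 ± 0.19 and an adjusted limma p of 0.980, followed by Rps13 with -0.43. Rpl22l1 had a mean of -0.27, and Rpl39, a very small protein of the exit tunnel, had -0.17 and -0.34 with a mean of -0.25. Rpl28 had -0.15 and -0.35. The highest was Rpl36, with 0.06 on array 1 and 0.69 on array 2 and a mean of 0.38 ± 0.24, and its second probe had a mean of 0.04. Rpl4 had 0.02 and 0.56, Rpl15 had -0.12 and 0.62, and Rpl17 had 0.03 and 0.37. In each of these 4 genes array 2 was the higher one.

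The comparison of old with young wild type asked about age. Limma called 0 of 50 members with a value, with adjusted p from 0.110 upward, and 0% of all tested probes. At an unadjusted p under 0.05 there were 12 members (24%, 9 higher and 3 lower), against 11.4% of all tested probes. The median was 0.20 (37 above and 13 below 0), against -0.02 for all tested probes. Only 6 members had unsaturated signal well above background and values on both arrays, and their median was 0.09. The direction of the median depended on the scaling. Feature Extraction's own ratios gave -0.11, with 20 of 50 members above 0. Median centring in place of loess gave -1.76, with 0 of 50 above 0, where all tested probes had -0.38. With outlier spots kept, the median of all 77 was 0.56, and array 1 alone had 0.97 and array 2 alone 0.06.

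Rps16, a protein at the decoding side of the small subunit, had the highest unsaturated ratio. Its only old value was 1.13 on array 2, and its values on the other arrays were -0.18, -0.13, -0.13 and 0.06. Its ratio in old wild type was 1.13 ± 0.12 (limma standard error, 1 array), with an adjusted p of 0.110. Its spot on array 1 was left out, and with outlier spots kept it had 0.96 and 0.66 on the 2 old arrays. Median centring turned it to -0.87.

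Rps24, a small subunit gene mutated in some cases of Diamond-Blackfan anaemia, had 0.62 on old array 2 and -0.16, -0.35, -0.07 and -0.12 on the fl26 and svb9 arrays. Rpl17, a protein at the exit tunnel, had 0.63 on old array 2. Rps21 and Rps7 had 0.73 and 0.72 there, and both were saturated on fl26 array 1 and svb9 array 1. With outlier spots kept, Rps24, Rpl17, Rps21 and Rps7 had 0.17, 0.19, 0.20 and 0.18 on old array 2. On old array 1 they then had 1.62, 2.31, 2.41 and 1.82. The other 2 probes of Rps21 had -0.04 and -0.21 on old array 2. Those of Rps24 had means of 0.20 and -0.04 in old wild type, and those of Rpl17 had 0.33 and 0.41. Among members well above background in red on both old arrays, the lowest were Rps13 at -0.60, Rpl36a at -0.56, Rpl39 at -0.54, Rps27a, made as a fusion with ubiquitin, at -0.33, and Rpl22l1 at -0.27, each from array 2 alone. Rps15 at -0.44 and Rpl27a at -0.37 also lay below Rps27a but were well above background in red on old array 2 alone. The value of Rpl27a was from old array 1. Under median centring Rps24 and Rpl17 turned to -1.35 and -1.31. Every member with a value lay below 0 under it, so the sign of Rps13, Rpl36a and Rpl39 there says nothing about these genes. With the replicate block, 3 of 50 members passed in old wild type, against 4.38% of all tested probes. By brightest probes these were Rps16 (1.07, adjusted p = 0.0182), Rps24 (0.68, 0.0410) and Rps15 (-0.44, 0.0402). Rps15, a small subunit gene, had -0.28 and -0.61 on the old arrays.

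The 3 red groups were compared with each other, where the dye cancels. Limma called 0 members in any of these comparisons, and 0% of all tested probes in each. Between fl26 and svb9 the median difference of the members was -0.03, and 2 of 77 (2.60%) had an unadjusted p under 0.05, against 2.18% of all tested probes. These were Rpl10a, with -0.42 and -0.23 in fl26 against -0.01 and 0.16 in svb9, a difference of -0.40 ± 0.13, and Rpl22l1, with a difference of -0.37 ± 0.14. Their adjusted limma p was 0.99995 each. Rpl17 had a difference of -0.28, and the highest were Rpl35 at 0.45, Rpl27a at 0.30 and Rpl26 at 0.29. Rpl35 and Rpl26 had svb9 values on array 1 alone, -0.02 and 0.17, against 0.09 and 0.10 on fl26 array 1. Their differences therefore rested mostly on fl26 array 2, with 0.78 and 0.83.

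Old wild type minus fl26 had a median of 0.31, with 13 of 50 members (26%) at an unadjusted p under 0.05 against 7.74% of all tested probes. Old wild type minus svb9 had a median of 0.26, with 9 of 50 (18%) against 4.71%. Both medians were below 0 under median centring, at -1.92 and -1.61. Among unsaturated members Rps16 was highest in both, with differences of 1.28 ± 0.15 and 1.16 ± 0.15 and adjusted limma p of 0.299 and 0.785. Rps24 followed with 0.88 and 0.71, then Rpl17 with 0.70 against fl26 and Rpl37 with 0.53 against svb9. The old value of Rpl37 was from array 1 alone, and those of Rps16, Rps24 and Rpl17 were from array 2 alone. Rpl27a had the lowest differences among unsaturated members, -0.84 and -0.54. Its only old value was on old array 1, where its red signal was not well above background. Rpl4, a large subunit protein lining the tunnel, was lowest among unsaturated members well above background in red on both old arrays, with -0.45 and -0.41. Rpl39 followed with -0.20 and -0.28 and Rps13 with -0.09 and -0.17. The old value of Rpl4 was from array 1 alone, and those of Rpl39 and Rps13 were from array 2 alone. Rpl7l1, with -0.31 and -0.21, and Rps15, with -0.22 and -0.23, were well above background in red on 1 of the 2 old arrays.

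Arrays extracted on 1 date allow differences within that date. Array 1 of fl26 minus array 1 of svb9 had a median of -0.03 over 75 members. Old array 1 minus fl26 array 2 had 0.08 over 19 members, and old array 2 minus svb9 array 2 had 0.19 over 40 members, 33 of them above 0. The medians of all tested probes were between 0.0047 and 0.0063. With the extraction date as a term, 0 members were called in any comparison.

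**Figure D4:**
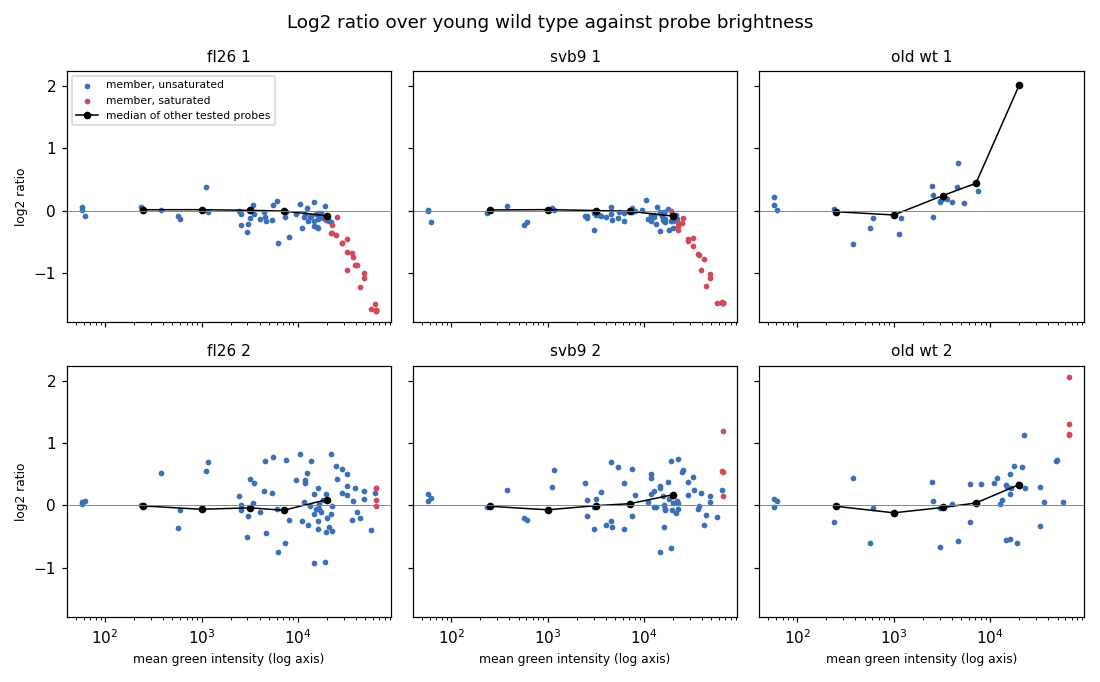
Log2 ratio over young wild type (vertical axis) against mean green intensity (horizontal, log axis), one panel per array. Points are members, red where saturated, and the black line joins the medians of the other tested probes in 5 classes of brightness, each drawn at one position within its class. Saturated members fall with brightness on fl26 array 1 and svb9 array 1, and the other probes over 10000 reach a median of 2.02 on old array 1.

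Other probes as bright as the members shifted in the same arrays. For tested probes that are no members and have a mean green intensity over 10000, the median log2 ratio was -0.08 on fl26 array 1 and -0.09 on svb9 array 1. It was 0.09 on fl26 array 2, 0.17 on svb9 array 2, 2.02 on old array 1 and 0.34 on old array 2. Member probes of that brightness had -0.21 on fl26 array 1, -0.18 on svb9 array 1, 0.05 on fl26 array 2, 0.13 on svb9 array 2 and 0.30 on old array 2, and 0 of the 64 had a value on old array 1. The part of brightness in the members' medians was not tested.

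The stalk proteins show how saturation set the values. Rplp0, Rplp1 and Rplp2 form the stalk of the large subunit, which recruits elongation factors. Their brightest probes had -1.61, -1.61 and -1.60 on fl26 array 1 and -1.49 each on svb9 array 1. Green was saturated on all 6 arrays for Rplp0 and Rplp1 and on 5 for Rplp2, and red was saturated for all of them on these 2 arrays, so no fold is given for them. A second probe of Rplp0, saturated on no array, had 0.03 and 0.05 in fl26, 0.12 and 0.03 in svb9 and 0.43 on old array 2. Another probe, also unsaturated, had -0.21 and -0.06, -0.18 and -0.18, and -0.42 on old array 2, so no direction is given for Rplp0. In a fit of the old arrays alone limma called Rplp1, from 1 array, and since green is only a bound there the call is not read as a difference.

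The means of Rps6, Rpl13a and Rps19 in the transgenic lines were small, at most 0.16 by brightest probes. Rps6, the substrate of S6 kinase, had 0.14 and -0.14 in fl26, -0.03 and 0.28 in svb9 and 0.30 on old array 2, with means of 0.00090 and 0.13 in the transgenic lines. Rpl13a, which can block translation of selected mRNAs, had 0.16 and -0.05, -0.05 and 0.36, and 0.34. Rps19, the gene most often mutated in Diamond-Blackfan anaemia, had -0.06 and 0.35 in fl26 and -0.17 and 0.45 in svb9, and no value in old wild type. Its second probe had 0.77 on old array 2, and its dimmest had a mean of 0.04 over both old arrays. In each of these genes the arrays of a group had opposite signs in at least 1 group.

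Rpl5 and Rpl11 bind Mdm2 together with the ribosomal 5S RNA. Rpl5 had 0.08 on fl26 array 1 and -0.01 and 0.72 in svb9, with red saturated on svb9 array 1. Rpl11 had -0.39 and 0.63 in fl26 and -0.21 and 0.53 in svb9, with red saturated on array 1 of each group. Rps14, a gene lost in the human 5q deletion syndrome, had -0.66 and 0.50, and -0.57 and 0.45, with the same saturation. Rps27 and Rps4x were saturated there too, with -0.52 and -0.69 on fl26 array 1 and 0.20 and -0.24 on fl26 array 2. By brightest probes, none of these 5 genes had a value on old array 1, and Rps4x alone had one on old array 2, 0.05. The second, dimmer probe of Rpl5 had -0.03 and -0.06 in fl26, -0.11 and -0.24 in svb9 and -0.41 on old array 1. That of Rpl11, with a mean intensity of 94, had -0.07 and -0.21 on the old arrays.

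Among the paralogs, Rps27l, a p53 target, had -0.06 and 0.41 in fl26 and 0.00 on svb9 array 1. Rpl7l1, a nucleolar assembly factor related to Rpl7, had 0.0039 and 0.51 in fl26, 0.07 and 0.25 in svb9, and -0.54 and 0.44 in old wild type. Rpl10l and Rps4l were not matched by the rule.

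Probes of 1 gene did not always give the same sign. Of 36 genes with at least 2 tested probes in fl26, 18 had mean ratios on both sides of 0, and the median range between probes was 0.24. In svb9 it was 17 of 36 with 0.27, and in old wild type 16 of 21 with 0.63. Over unsaturated probes well above background, the median ranges were 0.17 over 25 genes of fl26, 0.23 over 22 of svb9 and 0.64 over 13 of old wild type. These ranges are as large as most of the means above. This family has many processed pseudogenes of similar sequence, and which of them a probe also reads was not analysed here.

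Lists of genes that make, load or regulate ribosomes had medians near 0. Of 57 tested genes of ribosome assembly and RNA polymerase I, 0 passed in any comparison with young wild type, with medians of -0.01 (fl26), -0.02 (svb9) and -0.01 (old wild type). Highest in both transgenic lines were Emg1, a methyltransferase for ribosomal RNA, with 0.58 and 0.33, and Tsr1, an assembly factor of the small subunit, with 0.51 and 0.23. Nop10, of the pseudouridylation complex, was lowest, with -0.49 and -0.58. In old wild type Imp3 had 0.69 from 1 array and Ncl, nucleolin, 0.45.

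Of 33 tested initiation factors 0 passed, with medians of 0.04, -0.02 and -0.06 in fl26, svb9 and old wild type. Eif2s2, a subunit of the factor that brings initiator tRNA, had 0.44 in fl26 and 0.43 in svb9, and Eif3l had -0.54 and -0.61. Of 16 elongation factors and other genes with a TOP start, 0 passed, with medians of -0.09, -0.0069 and 0.0084. In fl26 Eef1d had 0.50 and Eef1b2 0.46, both subunits of the exchange factor of elongation factor 1, and Naca, of the nascent chain complex, had -0.43. In old wild type Tpt1 had 0.83 and Eif4b 0.71, each from 1 array.

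Of 22 tested genes of mTOR and S6 kinase signalling 0 passed, with medians of -0.08, -0.06 and -0.03. In old wild type 9 of the 22 (40.9%, 3 higher and 6 lower) had an unadjusted limma p under 0.05, against 11.4% of all tested probes. For old wild type minus fl26 it was 6 (27.3%) against 7.74%. The shares in fl26 and svb9 were 9.09% and 4.55%, against 10.2% and 4.45%. Eif4ebp2, a repressor of cap-dependent initiation, was lowest in both lines, with -0.39 and -0.45, and Eif4ebp1 had 0.57 in old wild type from 1 array. Of 10 p53 targets and regulators 0 passed, with medians of -0.02, 0.06 and 0.05. The 77 genes of mitochondrial ribosomal proteins had medians of -0.05, 0.01 and -0.06, and 0 passed. The 5 genes of cytosolic ribosomal proteins outside the naming rule included Rpsa with 0.30 in fl26 and -0.12 in svb9, and Fau with -0.45 in svb9.

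Markers of the tissue were present. All 9 prostate luminal and secretory genes, among them Pbsn and Hoxb13, were well above background in green on all 6 arrays, and 4 of 5 markers of the seminal vesicle and other lobes were so on none. Beside the members' ratios, luminal genes had a median of 0.51 in old wild type (8 of 9 above 0), basal genes 0.40 in fl26 (4 of 4 above 0) and fibroblast genes -0.33 in old wild type (5 of 6 below 0). The fibroblast median of 0.31 in fl26 rested on array 1, with 0.76 there and -0.13 on array 2. Proliferation genes had a median of 0.19 in fl26 (6 of 6 above 0), with 0.03 on array 1 and 0.37 on array 2. None of these passed the test, and their part in the members' values was not tested.

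**Figure D5:**
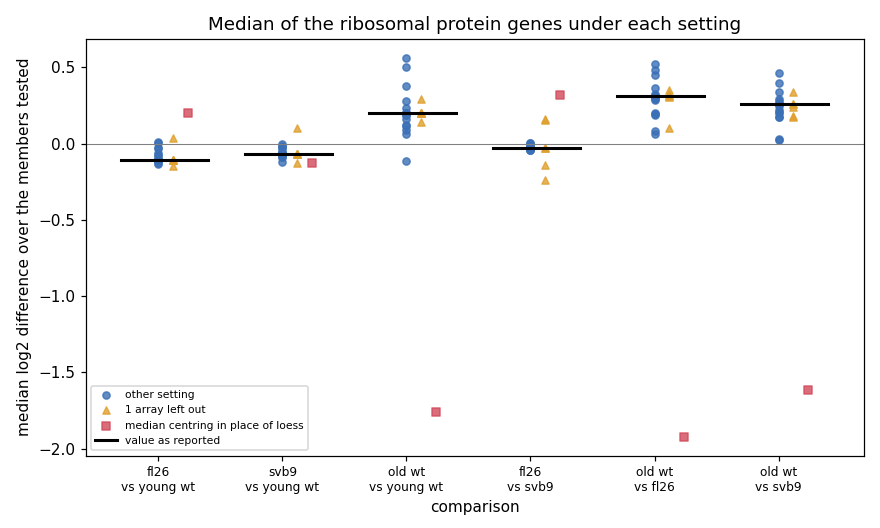
Median log2 difference over the members (vertical axis) in each of the 6 comparisons (horizontal axis). Black lines are the values as reported, circles other settings, triangles fits with 1 array left out and squares median centring in place of loess. The squares of the 3 comparisons with old wild type lie at -1.76, -1.92 and -1.61, and the reported medians lie between -0.11 and 0.31.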

How the data were processed

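Total RNA of pooled ventral prostates was hybridized to 2-colour Agilent whole mouse genome arrays. The deposited files give mean spot intensity and median background intensity in each channel, without normalization, and flags with values 0 or 1 (other) marking saturated spots, outlier spots and those well above background, made by Agilent Feature Extraction 7.5.1, per the file headers. The software's deposited log10 ratios, background-subtracted and dye-normalized per the file headers, served as an alternative. A table of the whole series, also deposited, has them rounded, with no difference over 0.0050.

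With limma 3.58.1 under R 4.3.3 (also statmod 1.5.0 and the package data.table, version 1.17.8), control and outlier spots were left out, saturated spots kept, background corrected by normexp (offset 50) and each array normalized by loess. Probes well above background in 1 channel on both arrays of a group were tested (27860 of 41174). Group means over all 6 arrays were tested (2-sided) against 0 and pairwise. P-values were adjusted by Benjamini-Hochberg over all tested probes, with a threshold of 0.05. Spread is pooled over groups, and a group with 1 value is assumed to vary like the others. The fit was tested on simulated data. Symbols came from the GRCm38.p6 gene table: 20716 probes by accession, 5039 by symbol and 5279 by synonym, and 10140 kept the name in the file. Replicate numbers were not described as pairs in the labels. Deviations of same-numbered arrays correlated at r = 0.61 (fl26 and svb9), 0.33 (fl26 and old wild type) and 0.17 (svb9 and old wild type), and calls that a replicate block changes are given. The 6 arrays were extracted on 3 dates. The precision is limited by 2 arrays per group.

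Named members are the 5 highest and 5 lowest unsaturated ones in each comparison with young wild type, 3 and 3 between red groups, any past the threshold, and a preset list of well-known members and paralogs; from other lists, the 2 highest and 2 lowest were the choice. Not all of those from the other lists are printed, and 1 member is not reported here. Members, lists and rules were chosen with earlier results of these data known. Promoter sequences are RefSeq's, on GRCm38.p6.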

Additional observations from a re-analysis of the deposited data

Results flagged for a closer look

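Green levels (young wild type) of 68 members without green saturation were examined over the 6 arrays for a single array standing apart from the other 5. Rpl32, a large subunit gene, stood 0.27 above its 6-array mean (log2) on fl26 array 1. Rpl7l1 stood 0.24 above its mean on old array 1. These are 2 of 68 members (2.94%), and chance gives about 1 in 20. No difference between red groups passed the limma test for any member.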

How the results depend on the processing

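Counts of members called were 0 under all alternatives in svb9 against young wild type and between red groups. They rose with the replicate block to 13 in fl26 and 3 in old wild type, and to 1 in old wild type when only that group's arrays were fitted. The block changed no other call.

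Medians moved more. Median centring gave 0.20 in fl26 (61 of 77 above 0, all tested probes 0.10), -1.76 in old wild type, 0.32 for fl26 minus svb9 (66 of 77 above 0), and -1.92 and -1.61 for old wild type minus fl26 and minus svb9 (1 of 50 above 0 in each). Under it the tested probes' median was -0.38 in old wild type, -0.52 against fl26 and -0.42 against svb9. Feature Extraction ratios gave -0.11 in old wild type, and 0.081 and 0.029 against fl26 and svb9. Keeping outlier spots gave 0.56, 0.52 and 0.46 in these 3, and 0.060, 0.061 and 0.025 without old array 1. In old wild type against young wild type, no background correction gave 0.38, the brightest probe saturated on no array 0.093, and saturated spots missing with outlier spots kept 0.50. The last and both settings with outlier spots kept were chosen after seeing the data. The cause of these shifts was not tested.

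Leaving out 1 array gave medians from -0.146 to 0.040 in fl26, -0.13 to 0.10 in svb9, -0.24 to 0.16 for fl26 minus svb9, and 0.10 to 0.35 for old wild type minus fl26. With saturated spots missing, the fl26 median was 0.0094 (73 members) and the svb9 median -0.01 (72 members), with 38 and 35 above 0. In single members, 61 of 77 in fl26, 58 of 77 in svb9 and 30 of 50 in old wild type kept their direction over the other fits run for single genes, and median centring turned 32, 9 and 37. Saturation on fl26 array 1 and svb9 array 1, and outlier marks on the old arrays, limit what these data show.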
